A study of Homo sapiens with 6 samples.

Results

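U2OS cells depleted of E2F7 were followed from 0 h to 12 h after release from a hydroxyurea block, and the change in each transcript was set beside the same change in control cells. U2OS is an established human osteosarcoma line. Both arms were held for 24 h with 4 mM hydroxyurea, which stops DNA synthesis by depleting deoxynucleotides, and were then washed and returned to full medium. One arm carried siRNA against E2F7 (siE2F7) and the other a non-target siRNA (siNT). Per the series' design, 0, 3 and 12 h stand for the start of S phase, S phase and the border of G2 with mitosis. Each arm had 1 library at each time, 6 in all, so no difference below has a replicate check and none was tested. The genes described are those with a mean of at least 5 FPKM over the siE2F7 libraries of 0 and 12 h and a value above 0 in both. FPKM count fragments per length of transcript and per mapped fragments, so levels can be compared between genes. This rule was met by 8855 of 12083 genes listed at both times, of 13161 listed at any time in the series. Of the rest, 3227 lay under the minimum and 1 was listed at 0 in a library. Just inside the minimum was ANAPC10, at 4.90 and 5.11 FPKM, and just outside it LYN, at 6.30 and 3.70 FPKM. The siE2F7 change is the log2 ratio of 12 h over 0 h after 0.1 FPKM was added to each value, a scale that compresses the changes of weakly expressed genes. The arm difference is the siE2F7 change minus the siNT change. Where a pair of changes is given with no arm named, the siE2F7 change comes first; levels are given with siNT first. It was computed for 8852 genes, because RPL21, SNORD28 and SNORD30 were listed at 0 in a siNT library.

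The G1/S programme is driven by activator E2F factors such as E2F1, E2F2 and E2F3, which turn on cyclin E, the replicative helicase and the enzymes of deoxynucleotide synthesis. E2F7 and E2F8 are atypical E2Fs that act as repressors of many of these genes during S phase and G2. The G2/M programme, with the B cyclins, polo-like and Aurora kinases and the proteins of the spindle, is driven by the MuvB core with B-MYB and FOXM1 and read from CHR promoter elements. In bulk RNA, a change in the share of cells in a phase and a change in transcript per cell cannot be told apart.

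E2F7 (hg19, chromosome 12, 77415026 to 77459360) stood at 20.3, 29.4 and 16.6 FPKM in siNT and at 9.48, 10.6 and 5.52 FPKM in siE2F7 at 0, 3 and 12 h. It was lower in siE2F7 at each time, and part of the transcript was left. FPKM summed to between 351305 and 375954 per library. The values are not counts, so library depth is unknown and counting error cannot be given. Of 9 osteoblast lineage markers 6 were listed, and their summed level lay between 290.1 and 417.5 FPKM per library, most of it COL1A1, while SP7, BGLAP and COL1A2 were not listed. Summed levels were 6.25 to 9.66 FPKM for the 2 listed of 5 blood cell markers and 204.2 to 302.6 FPKM for the 5 listed of 6 epithelial markers, chiefly KRT8 and KRT18. None of 4 endothelial markers was listed.

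Most genes differed little between 0 and 12 h in E2F7-depleted cells. The median siE2F7 change was -0.03, with quartiles of -0.25 and 0.18, against a median of -0.02 in siNT. At least 2-fold higher at 12 h in siE2F7 were 127 genes (1.43%), and at least 2-fold lower were 117 (1.32%). In siNT the counts over the same genes were 90 (1.02%) and 147 (1.66%). Of the genes past 2-fold upward, 64 were so in both arms, 62 in siE2F7 alone and 26 in siNT alone. Downward, 57 were past 2-fold in both arms, 60 in siE2F7 alone and 90 in siNT alone, and 1 gene was past 2-fold in opposite directions. These are counts past a fixed fold in single libraries. Across 8852 genes the changes of the arms had a Pearson r of 0.76 and a Spearman rho of 0.73, given as a description, since the arms share the gene models and the processing of each time. The arm difference had a median of -0.01 and quartiles of -0.15 and 0.14. It was at least 1.5-fold higher in siE2F7 for 212 genes (2.39%) and at least 1.5-fold lower for 146 (1.65%), and it was above 0 for 48.8%.

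**Figure D1:**
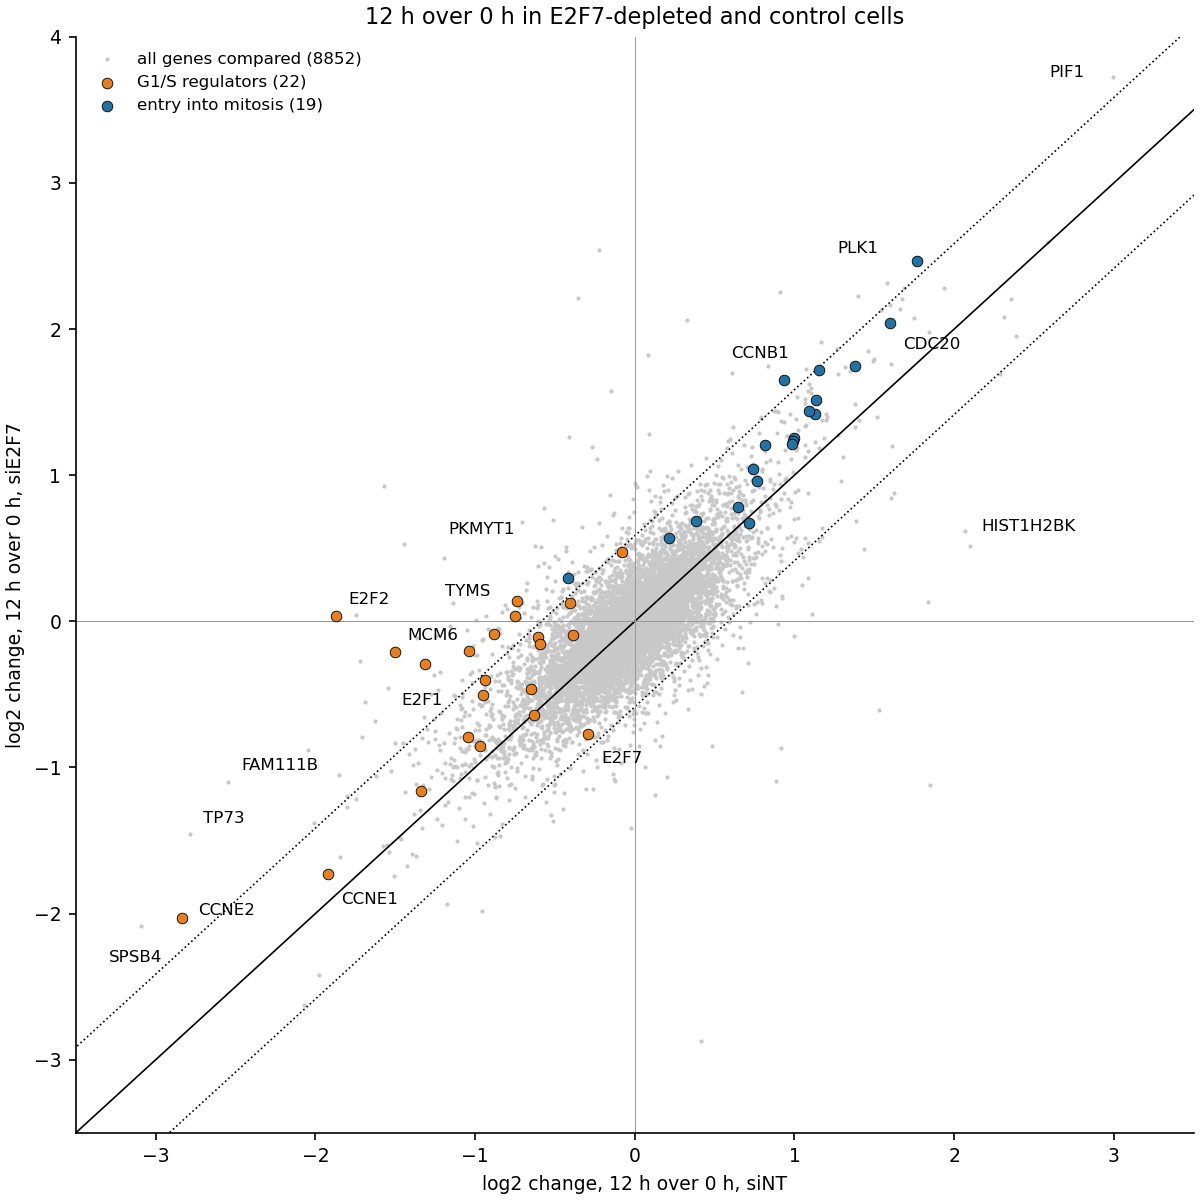
Log2 change from 0 to 12 h in siNT (x axis) and siE2F7 (y axis) for 8852 genes, 1 library per arm and time, with G1/S regulators in orange and genes of entry into mitosis in blue. The solid line marks equal change and the dotted lines a 1.5-fold arm difference. E2F2, E2F1 and MCM6 lie above the upper dotted line, with siE2F7 changes of 0.04, -0.30 and -0.21. PLK1 lies above the same line with a siE2F7 change of 2.47, and HIST1H2BK lies far below the lower one.

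Programme genes were taken as those with a mean change over both arms past 2-fold. A programme gene was called kept where the arm difference was within 1.5-fold, flattened where the siE2F7 change was smaller by 1.5-fold or more, and exaggerated where it was larger by as much. Of 96 genes higher at 12 h (1.08% of the genes compared), 72 were kept, 6 flattened and 18 exaggerated, and their median change was 1.44 in siE2F7 and 1.15 in siNT. Of 103 genes lower at 12 h (1.16%), 84 were kept, 14 flattened and 5 exaggerated, with median changes of -1.12 and -1.22. Over all genes compared, 4.04% had an arm difference past 1.5-fold in one direction or the other. The upward side thus held more exaggerated than flattened genes, and the downward side more flattened than exaggerated ones. The balance turned with the arm that chose the genes. Chosen by the siNT change alone, the upward genes had 16 flattened and 9 exaggerated, and the downward genes 44 and 1. Chosen by the siE2F7 change alone, the upward genes had 1 flattened and 33 exaggerated, and the downward genes 7 and 25.

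**Figure D2:**
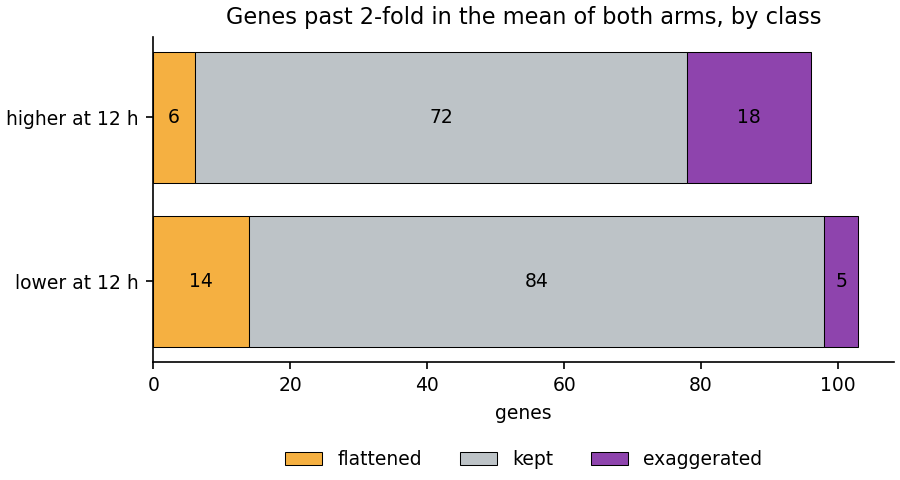
Number of programme genes (x axis) that were kept, flattened or exaggerated in siE2F7, for genes higher and lower at 12 h by the mean of both arms, 1 library per arm and time. Kept genes are the largest class on both sides, 72 of 96 and 84 of 103. The upward side has 18 exaggerated and 6 flattened genes, the downward side 5 and 14.

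Both E-type cyclins were still lower at 12 h by more than 2-fold in E2F7-depleted cells. CCNE1 (hg19, chromosome 19, 30302901 to 30315215), which activates CDK2 at the start of S phase, stood at 92.5, 71.1 and 24.4 FPKM in siNT and 169.8, 165 and 51.1 FPKM in siE2F7 at 0, 3 and 12 h. Its change was -1.73 in siE2F7 and -1.92 in siNT, so it was kept, from a level that was higher in siE2F7 at all times. CCNE2, the second E-type cyclin, stood at 28.6, 17.3 and 3.91 FPKM in siNT and 60.4, 55.8 and 14.7 FPKM in siE2F7. With changes of -2.03 and -2.84 it was flattened, though its siE2F7 change was among the 15 lowest apart from small RNA entries. UNG, which removes uracil from DNA, stood at 39.1, 26.9 and 15.4 FPKM in siNT and 61.0, 52.0 and 27.2 FPKM in siE2F7, with changes of -1.16 and -1.34. These 3 were the G1/S regulators at least 2-fold lower at 12 h in siE2F7.

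The 22 G1/S regulators as a list had a median change of -0.25 in siE2F7 and -0.91 in siNT, beside -0.03 and -0.02 over all genes. All 22 were below 0 in siNT and 17 in siE2F7, where 54.7% of all members lay below 0. In siNT 8 of them were at least 2-fold lower at 12 h, against 3 in siE2F7, beside 1.66% and 1.32% of all genes. The arm difference had a median of 0.52 and was above 0 for 20 of 22, the exceptions being E2F7, the target of the siRNA, at -0.48 and SLBP, which binds histone mRNA, at -0.01. It was past 1.5-fold upward for 8 of them, E2F2, MCM6, E2F1, TYMS, MCM5, CCNE2, PCNA and E2F8, beside 2.39% of all genes, and past 1.5-fold downward for none. The licensing factors CDC6 and CDT1 had arm differences of 0.11 and 0.50, and the phosphatase CDC25A of 0.19.

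E2F2 and E2F8 were level in siE2F7 from 0 to 12 h and lower at 12 h in siNT. E2F2 (hg19, chromosome 1, 23832920 to 23857712) stood at 5.04, 1.89 and 1.30 FPKM in siNT at 0, 3 and 12 h, and at 26.3, 29.7 and 27.0 FPKM in siE2F7. It was lower at 12 h in siNT, with a change of -1.87, and was level in siE2F7, with a change of 0.04, so the arm difference was 1.91. E2F1 stood at 30.1, 23.4 and 12.0 FPKM in siNT and 66.5, 67.4 and 54.2 FPKM in siE2F7, with changes of -0.30 and -1.31. E2F8, the other atypical E2F, stood at 4.84, 3.65 and 2.84 FPKM in siNT and 11.4, 11.8 and 11.7 FPKM in siE2F7, and its changes were 0.03 and -0.75. All 3 were higher in siE2F7 at every time, and the ratio of the arms was largest at 12 h. E2F3, also an activator, had changes of -0.05 in siNT and -0.07 in siE2F7. RBL1, the pocket protein p107, had the highest siE2F7 change of the G1/S regulators, 0.48, against -0.08 in siNT.

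**Figure D3:**
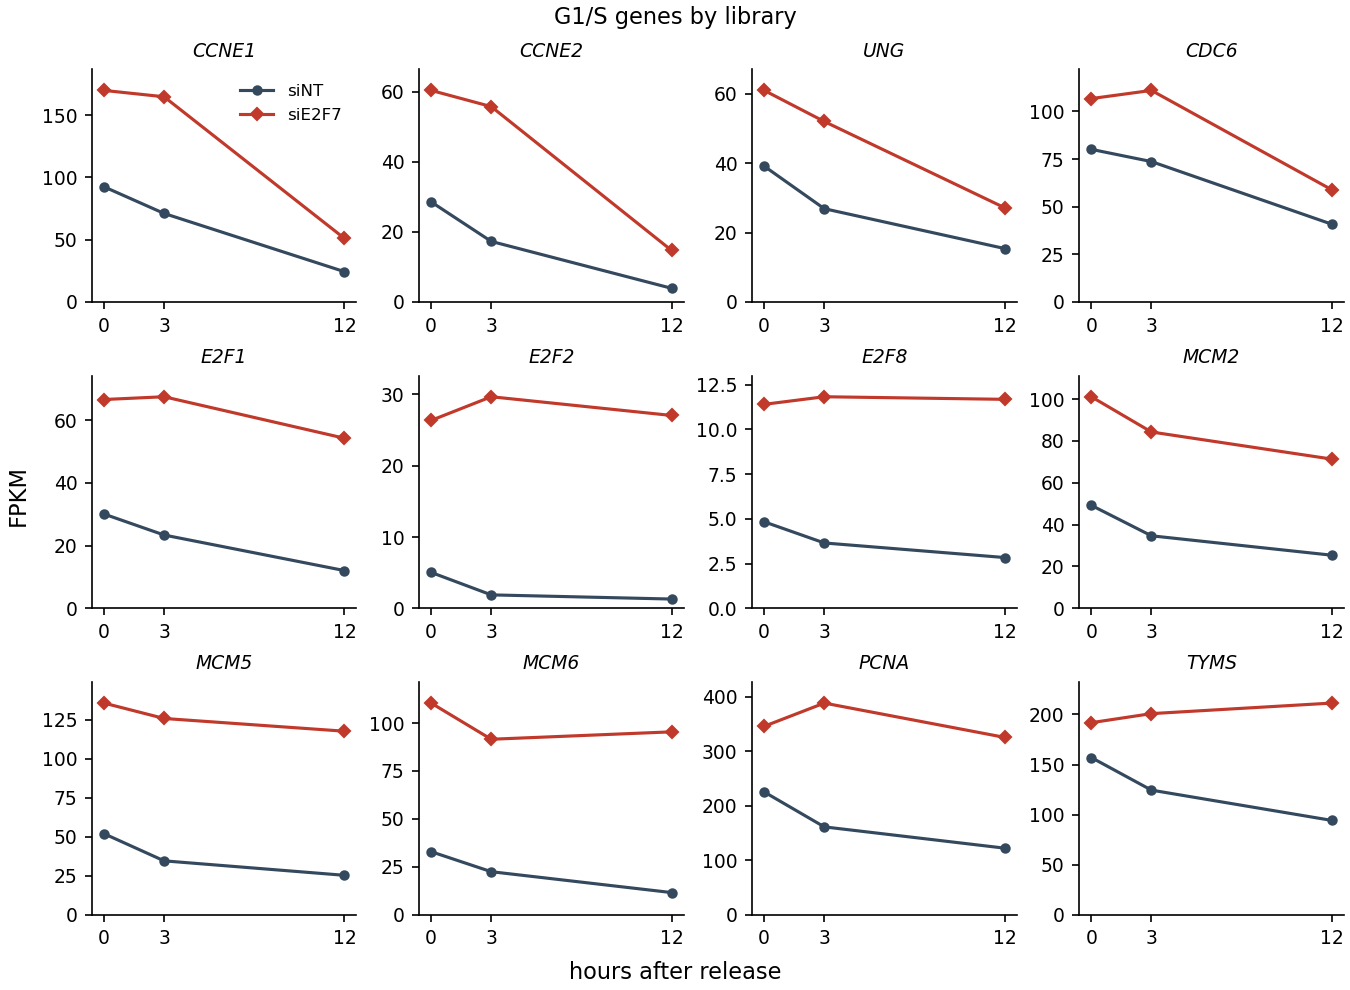
FPKM (y axis, from 0) of 12 G1/S genes by hours after release (x axis), siNT in dark blue and siE2F7 in red, 1 library per point. CCNE1, CCNE2 and UNG go down in both arms, while E2F2, E2F8 and TYMS are level or higher at 12 h in siE2F7 and lower in siNT.

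Promoter sequence is shown for 5 G1/S genes with an arm difference past 1.5-fold, because E2F sites are the element through which E2F7 is known to act. The 5 were chosen among genes that held such a site, and none of them is a programme gene by the mean of both arms. The windows run from 250 bases before to 50 after the start of a gene, from RefSeq on GRCh38.p14, and 6429 members matched by symbol and 649 by an older name. An E2F site was counted as TTTCCCGC or TTTGGCGC on either strand. The stretches below are 30 bases long, 5′ to 3′ on the strand of the gene, with the match in capitals, and a run that reads GCGGGAAA is TTTCCCGC on the opposite strand. They come from chr1:23531257-23531286 (minus strand), chr2:135876515-135876544 (minus), chr20:33686387-33686416 (minus), chr18:657603-657632 (plus) and chr20:5126663-5126692 (minus), in the order shown.
E2F2: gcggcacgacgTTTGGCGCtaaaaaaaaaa
MCM6: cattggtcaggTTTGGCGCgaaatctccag
E2F1: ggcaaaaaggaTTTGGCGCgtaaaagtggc
TYMS: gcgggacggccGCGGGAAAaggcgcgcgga
PCNA: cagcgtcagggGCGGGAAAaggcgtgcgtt
All 5 matches lie before the start, the farthest at -90 to -83 (MCM6) and the nearest at -20 to -13 (E2F1), counted in bases from the start. Of the G1/S regulators with a window, 10 of 17 held an E2F site (58.8%), against 4.20% of members and 2.31% of all windows. Of members with an arm difference at least 1.5-fold higher, 14 of 148 held one (9.46%), and of those at least 1.5-fold lower, 2.97%. The 14 include the 5 genes shown above, so this share is not separate from that of the G1/S regulators. In the flattened downward class 1 of 9 windows held one (11.1%), and among all programme genes lower at 12 h 3 of 75 did (4.00%), near the share of members. A match describes the letters of the window and shows no binding.

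The replicative helicase dropped less by 12 h in siE2F7 than in siNT, most of all in MCM6. MCM6 (hg19, chromosome 2, 136597196 to 136634011), a helicase subunit, stood at 32.9, 22.4 and 11.5 FPKM in siNT at 0, 3 and 12 h and at 110.4, 91.5 and 95.4 FPKM in siE2F7. Its change was -0.21 in siE2F7 and -1.50 in siNT. MCM5 stood at 51.9, 34.5 and 25.2 FPKM in siNT and 136, 126 and 118 FPKM in siE2F7, with an arm difference of 0.83, and MCM3 had one of 0.90. MCM2, MCM4 and MCM7 had arm differences of 0.45, 0.44 and 0.41, under the 1.5-fold mark. Over the 16 genes of origin licensing the median change was -0.20 in siE2F7 and -0.55 in siNT, and 3 had an arm difference past 1.5-fold upward, beside 2.39% of all genes. The origin recognition subunits ORC2, ORC3 and ORC6 had arm differences between -0.17 and -0.03. In origin firing, all 14 genes had an arm difference above 0, with a median of 0.20. GINS2, a helicase cofactor, had the widest at 0.76, then the kinase CDC7 at 0.59 and CDC45, another helicase cofactor, at 0.53.

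At the fork, 28 of 32 genes had an arm difference above 0, with median changes of -0.20 in siE2F7 and -0.44 in siNT. PCNA, the sliding clamp, stood at 225, 161 and 122 FPKM in siNT and 346, 388 and 325 FPKM in siE2F7, so it was lower at each later time in siNT and at 12 h near its 0 h level in siE2F7. LIG1, which joins Okazaki fragments, had changes of 0.26 in siE2F7 and -0.35 in siNT. Kept close to the control course were CLSPN, the checkpoint mediator claspin, at -0.85 and -1.04, and RPA1, which coats single-stranded DNA, at -0.54 and -0.60. POLD4, a small polymerase delta subunit, went the other way, with an arm difference of -0.52.

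Deoxynucleotide synthesis was split. TYMS, which makes thymidylate, stood at 157, 124 and 94.2 FPKM in siNT and 192, 201 and 211 FPKM in siE2F7, higher at 12 h than at 0 h in siE2F7 and lower in siNT. DUT, which clears dUTP, stood at 39.7, 32.5 and 19.2 FPKM in siNT and 79.6, 85.5 and 76.5 FPKM in siE2F7, with an arm difference of 0.99. The kinase TK1 and the reductase subunit RRM2 had arm differences of 0.53 and 0.44. The purine enzymes PAICS and GART had 0.04 and -0.15, and the p53-induced reductase subunit RRM2B had -0.24. Over the 20 genes of the list the median arm difference was 0.09, and 12 were above 0.

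Repair genes that are coupled to S phase also had smaller drops in siE2F7. Over 29 genes of homologous recombination and the Fanconi anaemia pathway, 24 had an arm difference above 0, with median changes of -0.24 in siE2F7 and -0.45 in siNT. Past 1.5-fold upward were 4 of them, beside 2.39% of all genes. These were BARD1, the BRCA1 partner, at 0.81, the helicase BRIP1 at 0.62, RMI2, of the Bloom helicase complex, at 0.62, and the ubiquitin-conjugating enzyme UBE2T at 0.59. MSH6, a mismatch repair protein, had changes of -0.79 in siE2F7 and -1.05 in siNT. Over 17 genes of mismatch and base excision repair the median arm difference was 0.09, while the median change was -0.19 in siE2F7 and -0.13 in siNT, so the median arm difference and the difference of the medians have opposite signs. SMUG1, a uracil glycosylase, was past 1.5-fold downward at -0.77. In the replication checkpoint CHEK2 had an arm difference of 0.63 and CHEK1 of 0.24.

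Among the cyclins and inhibitors of G1, no common direction was seen. CDKN2C, the p18 inhibitor of CDK4 and CDK6, stood at 22.6, 14.8 and 16.1 FPKM in siNT and 41.2, 35.5 and 55.3 FPKM in siE2F7, lower at 12 h in siNT and higher in siE2F7. CCND2, cyclin D2, stood at 30.1, 26.8 and 20.4 FPKM in siNT and 40.8, 22.5 and 17.3 FPKM in siE2F7, and was at least 2-fold lower at 12 h in siE2F7 alone. CDKN1A, the p21 inhibitor, was alike in the arms, with changes of -0.89 and -0.84, as was CDKN1B, p27, at 0.96 and 0.84.

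The genes of entry into mitosis were all higher at 12 h in siE2F7. Over the 19 genes of this list above the minimum (FOXM1 was not among them) the median change was 1.23 in siE2F7 and 0.98 in siNT. At least 2-fold higher at 12 h were 13 in siE2F7 and 7 in siNT, beside 1.43% and 1.02% of all genes. The arm difference was above 0 for 18 of 19, with a median of 0.35. It was past 1.5-fold upward for 3, PLK1, CDC25C and PKMYT1, beside 2.39% of all genes. The exception was WEE1, the kinase that inhibits CDK1, at -0.04.

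PLK1 (hg19, chromosome 16, 23690201 to 23724821), the polo-like kinase of mitotic entry and spindle assembly, stood at 23.9, 26.8 and 81.6 FPKM in siNT at 0, 3 and 12 h and at 19.6, 23.5 and 109 FPKM in siE2F7. It was lower in siE2F7 at 0 and 3 h and higher at 12 h, and the change was 5.53-fold in siE2F7 and 3.40-fold in siNT. CDC25C, a phosphatase that activates CDK1, stood at 6.04, 5.88 and 11.6 FPKM in siNT and 5.21, 6.45 and 16.6 FPKM in siE2F7, with changes of 1.65 and 0.93. CCNB1, cyclin B1, stood at 86.5, 93.6 and 193 FPKM in siNT and 71.0, 87.5 and 234 FPKM in siE2F7, with an arm difference of 0.56, just inside 1.5-fold. CDC20, which activates the anaphase-promoting complex, stood at 68.7, 66.8 and 208 FPKM in siNT and 55.7, 59.5 and 229.7 FPKM in siE2F7, and AURKA, the Aurora A kinase, at 44.0, 48.4 and 115 FPKM in siNT and 35.4, 35.8 and 119 FPKM in siE2F7. Cyclin B1, CDC20 and AURKA thus shared the crossing seen for PLK1, with siE2F7 the lower arm at 0 h and the higher at 12 h. PKMYT1, the membrane-bound inhibitor of CDK1, had another course, at 26.7, 20.6 and 19.9 FPKM in siNT and 39.0, 45.3 and 48.0 FPKM in siE2F7. It was lower at 12 h in siNT and higher in siE2F7, as TYMS was. CDK1 itself had changes of 0.69 and 0.38, and CCNA2, cyclin A2, of 1.04 and 0.74.

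**Figure D4:**
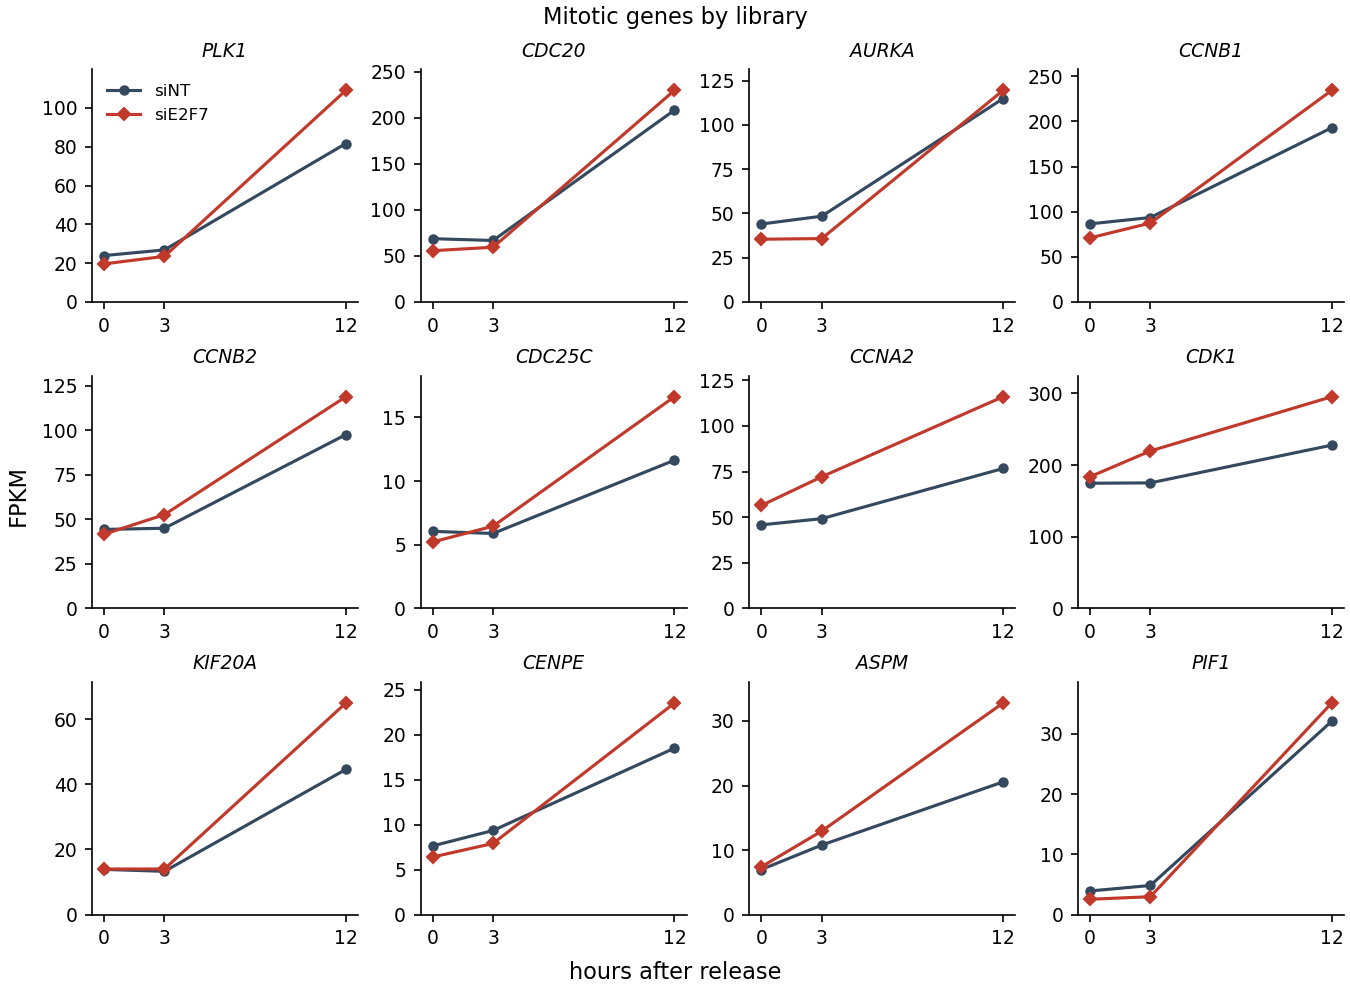
FPKM (y axis, from 0) of 12 G2/M genes by hours after release (x axis), siNT in dark blue and siE2F7 in red, 1 library per point. PLK1, CDC20, CCNB1 and AURKA stay near their 0 h level at 3 h and are higher at 12 h in both arms, and at 12 h the siE2F7 library is the higher one.

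CHR elements were searched in the same windows because G2/M genes are read through them. Shown are the genes of entry into mitosis with the highest siE2F7 changes among those with a match. CCNB1, CDC25C and CDC25B had windows without a match, and AURKA and UBE2C had no window, so all were passed over. A single window was read per gene, so a match near another start would not be seen. The stretches below show TTTGAA in capitals, or TTCAAA where the match is on the opposite strand, again as 30 bases 5′ to 3′ on the strand of the gene. They come from chr16:23678848-23678877, chr1:43358904-43358933, chr15:59105105-59105134, chr13:72727734-72727763 and chr9:89311154-89311183, all on the plus strand, in the order shown.
PLK1: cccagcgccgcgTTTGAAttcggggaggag
CDC20: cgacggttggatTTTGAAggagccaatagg
CCNB2: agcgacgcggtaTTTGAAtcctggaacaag
BORA: aggctgcgttgaTTTGAAtttggagccacg
CKS2: cgggctgtcggaTTCAAAtccggatcgttg
Of the genes of entry into mitosis with a window, 9 of 15 held TTTGAA on either strand (60.0%), and 20 of 26 genes of the spindle, midzone and cytokinesis list did (76.9%). The share was 9.21% of members, 15.4% of all windows and 0 of 17 G1/S regulators. No gene of entry into mitosis (0 of 15) held one of the E2F sites above. CCAAT, on either strand, was in 86.7% of the windows of entry into mitosis, 80.8% of those of the spindle list and 37.0% of those of members. Among programme genes TTTGAA was in 29 of 70 windows of genes higher at 12 h (41.4%) and in 5 of 75 of genes lower at 12 h (6.67%). The median GC content was 64.7% in the windows of entry into mitosis, 68.3% in those of the G1/S regulators and 65.7% in those of members.

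Spindle genes were higher at 12 h in both arms, and by more in siE2F7. Over 32 genes of the spindle, midzone and cytokinesis the median change was 1.05 in siE2F7 and 0.74 in siNT, and 31 had an arm difference above 0, the exception being TROAP at -0.05. At least 2-fold higher were 16 in siE2F7 and 13 in siNT, beside 1.43% and 1.02% of all genes, and 3 had an arm difference past 1.5-fold upward, beside 2.39%. PIF1 (hg19, chromosome 15, 65107833 to 65117838) had the highest siE2F7 change of all genes. It is a DNA helicase of the nucleus and mitochondria, yet it stands in this list and is among the 3 past 1.5-fold. It stood at 3.93, 4.84 and 32.1 FPKM in siNT and 2.55, 2.97 and 35.1 FPKM in siE2F7, a change of 13.3-fold in siE2F7 and 7.98-fold in siNT. ASPM, a spindle pole protein, stood at 6.99, 10.8 and 20.6 FPKM in siNT and 7.40, 12.9 and 32.8 FPKM in siE2F7. HMMR, which binds microtubules at the pole, had changes of 0.81 in siE2F7 and 0.16 in siNT. NEK2, a centrosome kinase, FAM83D, a spindle protein, and PSRC1, which binds microtubules, had siE2F7 changes of 2.17, 2.14 and 2.28, and arm differences of 0.57, 0.48 and 0.35, inside the 1.5-fold mark.

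The motors followed the spindle list. Over 14 mitotic kinesins the median change was 0.99 in siE2F7 and 0.76 in siNT, and 13 had an arm difference above 0. In siE2F7 6 were at least 2-fold higher and in siNT 5, beside 1.43% and 1.02% of all genes. CENPE, which carries chromosomes to the metaphase plate, stood at 7.64, 9.36 and 18.5 FPKM in siNT and 6.40, 7.92 and 23.5 FPKM in siE2F7, and was exaggerated at 0.60. KIF20A, of cytokinesis, had changes of 2.20 and 1.67, and KIF18B, which shortens microtubules, had 1.18 and 1.15. KIF2A, a related depolymerase, was lower at 12 h in both arms, at -0.42 and -0.26.

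Centromere and kinetochore genes lay higher in siE2F7 at 12 h without 1 common course. Over 34 of them the median change was 0.28 in siE2F7 and -0.08 in siNT, and 32 had an arm difference above 0. SPC24, of the outer NDC80 complex, stood at 9.11, 6.41 and 7.77 FPKM in siNT and 12.6, 7.50 and 20.3 FPKM in siE2F7, so it was lower at 12 h in siNT and higher in siE2F7. NUF2, of the same complex, had changes of 1.24 and 0.58, and DSN1, of the MIS12 complex, had -0.05 and -0.85. The centromeric histone CENPA had an arm difference of 0.42, its chaperone HJURP 0.08 and CENPF 0.04. In the spindle checkpoint and passenger list the median change was 0.90 in siE2F7 and 0.72 in siNT over 16 genes. MAD2L1, the checkpoint protein that holds CDC20, stood at 68.3, 54.6 and 64.5 FPKM in siNT and 62.2, 66.6 and 96.8 FPKM in siE2F7, near its 0 h level at 12 h in siNT and above it in siE2F7. The kinase TTK and the passenger protein BIRC5 had arm differences of 0.56 and 0.43.

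Other structures of division, taken as lists, had smaller median arm differences, though some of their genes had wide ones. Over 22 genes of the anaphase-promoting complex and mitotic proteolysis the median arm difference was 0.13. In siE2F7 6 were at least 2-fold higher, beside 1.43% of all genes. They included PTTG1, securin, at 1.37, and ESPL1, separase, at 1.19, against 0.91 and 0.74 in siNT. Core subunits such as ANAPC1 and ANAPC5 had arm differences of -0.14 and -0.06. Cohesin and condensin, and the centriole and centrosome list, also had a median arm difference of 0.13 each. At the nuclear envelope SUN2, which links the lamina to the cytoskeleton, stood at 8.55, 11.2 and 25.8 FPKM in siNT and 8.42, 15.1 and 42.3 FPKM in siE2F7 and was exaggerated. SYNE2, its partner across the envelope, stood at 8.98, 10.8 and 5.11 FPKM in siNT and 17.8, 20.2 and 18.9 FPKM in siE2F7, lower at 12 h in siNT and near level in siE2F7. STMN1, stathmin, which sequesters tubulin, stood at 260.4, 208 and 193 FPKM in siNT and 428, 529 and 597 FPKM in siE2F7, while the tubulins TUBA1B and TUBB6 had arm differences of 0.14 and 0.00.

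Apart from the small RNA entry SNORA25, the largest shortfall among programme genes higher at 12 h was in a histone. HIST1H2BK (hg19, chromosome 6, 27106072 to 27114637), an H2B gene, stood at 51.8, 122 and 218 FPKM in siNT at 0, 3 and 12 h and at 36.2, 61.8 and 55.5 FPKM in siE2F7. Its change was 0.62 in siE2F7 and 2.07 in siNT, and the arms were nearest at 0 h. Of 59 replication-dependent histone genes 21 were listed and 2 lay above the minimum, so the list says little of histones as a group. Linker histone H1F0 was kept, at 108, 463 and 535 FPKM in siNT and 85.2, 421 and 361 FPKM in siE2F7, and in both arms its 3 h level was nearer to the 12 h level than to that of 0 h. H3F3A, which encodes the replacement histone H3.3, was near level in siNT at -0.01 and higher at 12 h in siE2F7 at 0.84. The other flattened upward genes that are not small RNA entries were ITGA2, the integrin alpha 2 chain, at 0.84 and 1.61, and COL13A1, a membrane collagen, at 0.69 and 1.39.

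Other flattened downward genes included TP73, a p53 relative and a known E2F target, at 4.18, 2.54 and 0.52 FPKM in siNT and 10.1, 8.76 and 3.62 FPKM in siE2F7. FAM111B, a protease gene, stood at 48.3, 26.6 and 8.19 FPKM in siNT and 127, 112 and 59.3 FPKM in siE2F7, and NTN1, netrin 1, at 5.68, 4.05 and 1.77 FPKM in siNT and 16.6, 13.9 and 10.3 FPKM in siE2F7. These genes were higher in siE2F7 at every time and still lower at 12 h than at 0 h in both arms. SPSB4, a substrate adaptor of ubiquitin ligases, had changes of -2.08 in siE2F7 and -3.09 in siNT. Its levels were 3.95, 2.09 and 0.37 FPKM in siNT and 8.59, 5.08 and 1.95 FPKM in siE2F7. The siNT levels of SPSB4, TP73 and NTN1 at 12 h were low, so their class depends on the value added before the log2 ratio. With 1 FPKM added in place of 0.1, 4 downward genes were flattened in place of 14. Kept downward genes included FAM20C, a kinase of secreted proteins, at -2.62 and -2.07, RTN4R, the Nogo receptor, at -2.42 and -1.98, GCH1, of tetrahydrobiopterin synthesis, at -1.54 and -1.57, and CA2, a carbonic anhydrase, at -1.68 and -1.43. The 5 exaggerated downward genes included C18orf32, which shares a locus and was higher at 12 h in siNT, at -2.87 and 0.42, and LOC730755 at -1.98 and -0.96. The others were GPRASP2, which binds G protein-coupled receptors, at -1.93 and -1.18, CXCL14, a chemokine, at -1.47 and -0.88, and AK4, a mitochondrial adenylate kinase, at -1.47 and -0.84. GPRASP2 and, among the flattened genes above, TP73 also share a locus with another entry.

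Exaggerated upward genes outside the mitotic lists followed more than 1 course. TM4SF1, a surface tetraspanin-like protein, stood at 34.5, 165 and 77.7 FPKM in siNT and 28.3, 211 and 107 FPKM in siE2F7, highest at 3 h in both arms. ARL6IP1, of the endoplasmic reticulum membrane, had changes of 2.22 in siE2F7 and 1.40 in siNT, and CYP24A1, which inactivates vitamin D, had 1.73 and 1.07. TNFAIP8L1 had 2.28 and 1.69. Among kept upward genes, DHRS2, a short-chain dehydrogenase, stood at 167, 669 and 876 FPKM in siNT and 142, 596 and 551 FPKM in siE2F7, nearer at 3 h to the 12 h level than to that of 0 h in both arms, and LOC90499 stood at 8.55, 38.3 and 51.9 FPKM in siNT and 8.51, 40.8 and 52.0 FPKM in siE2F7, nearly alike in the arms.

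**Figure D5:**
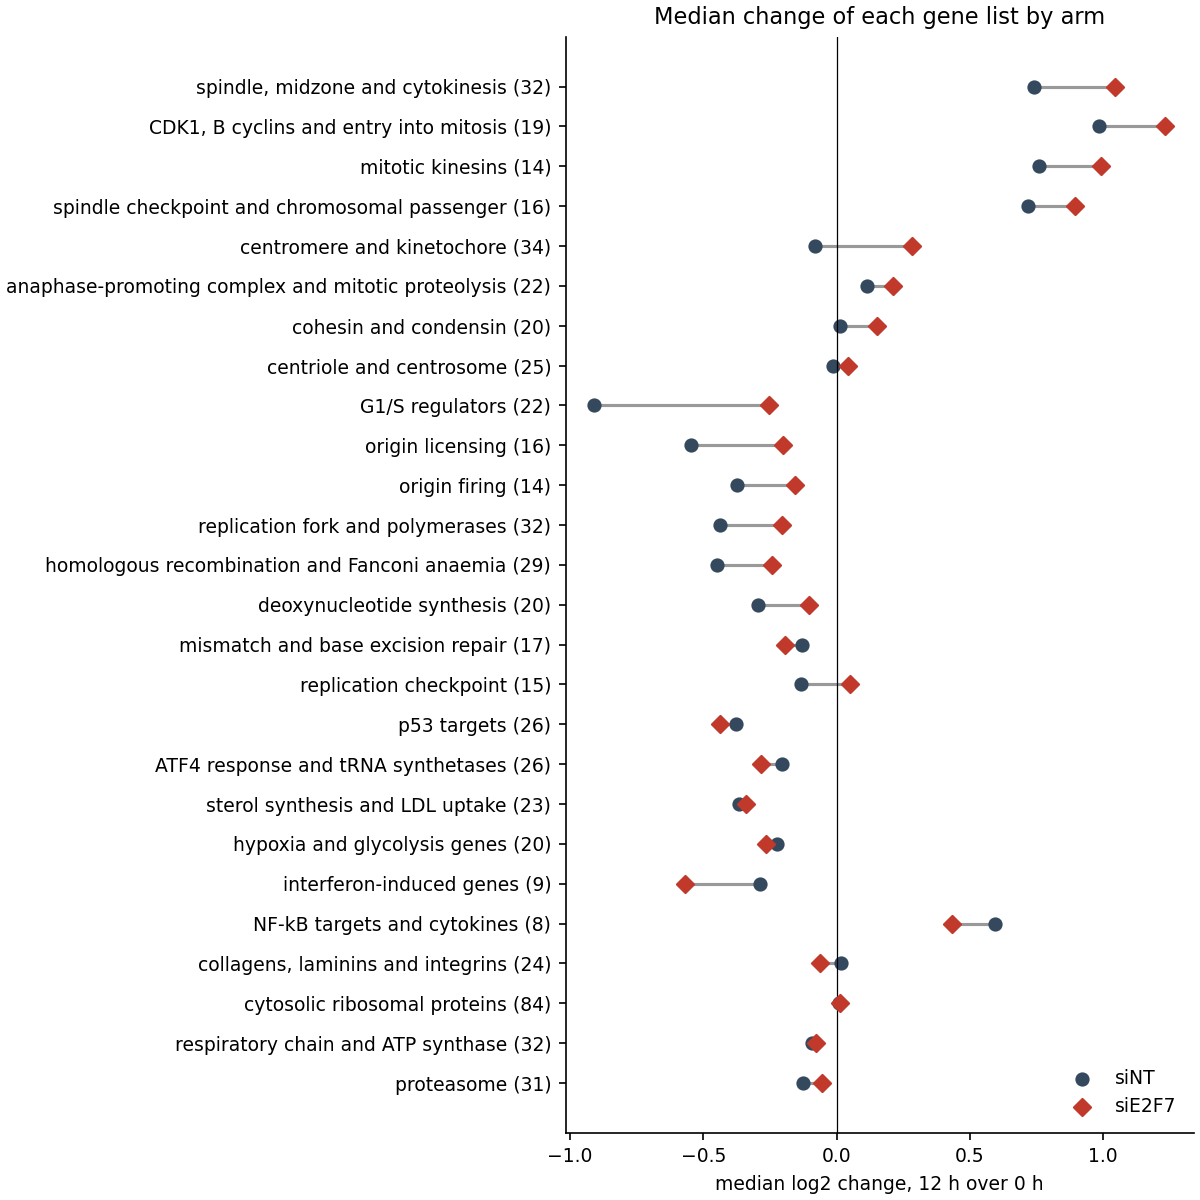
Median log2 change from 0 to 12 h (x axis) in siNT and siE2F7 for each gene list, 1 library per arm and time. The G1/S regulators and the lists of licensing, firing, fork, deoxynucleotide synthesis and homologous recombination lie to the left of 0 with siE2F7 nearer to 0. The lists of mitotic entry, spindle, kinesins and spindle checkpoint lie to the right with siE2F7 farther out.

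Most stress and signalling lists had medians that lay close in the arms. The p53 targets had median changes of -0.44 in siE2F7 and -0.38 in siNT over 26 genes, and sterol synthesis -0.34 and -0.37 over 23. Hypoxia genes had -0.27 and -0.22 over 20, and the ATF4 response -0.28 and -0.21 over 26. In these lists, in the order given, the arm difference was below 0 for 18, 12, 12 and 19 genes, against 51.2% of all genes. The interferon-induced genes had medians of -0.57 and -0.29 over 9, with a median arm difference of -0.09 and 4 of 9 above 0. The NF-kB targets had medians of 0.44 and 0.60 over 8, with a median arm difference of -0.26 and 6 of 8 below 0. Among them, RELB and NFKB1 had arm differences of -0.56 and -0.65, and IL8 stood at 3.71, 60.7 and 12.7 FPKM in siNT and 2.53, 52.6 and 11.0 FPKM in siE2F7, highest at 3 h in both arms. ISG15, a ubiquitin-like protein induced by interferon, stood at 9.39 FPKM at 0 h and 10.8 FPKM at 12 h in siNT, and at 8.04 and 3.79 FPKM in siE2F7. In the matrix list 18 of 24 genes had an arm difference below 0, against 51.2% of all genes, with LAMB1, a laminin chain, at -0.63 and THBS1, thrombospondin 1, at -0.60. Heat shock proteins and chaperones had 18 of 21 below 0, with a median of -0.08. The respiratory chain, proteasome and cytosolic ribosomal proteins had median arm differences of 0.01, 0.03 and -0.02.

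The 3 h libraries, which the choice of genes did not use, give the path between 0 and 12 h, with 1 library per arm. The siE2F7 over siNT log2 ratio of the G1/S regulators had medians of 0.64, 0.97 and 1.10 at 0, 3 and 12 h, so the list was higher in siE2F7 from the start. Its arm difference built up by a median of 0.30 from 0 to 3 h and 0.22 from 3 to 12 h. E2F2 built up 1.54 in the first step and 0.37 in the second. For entry into mitosis the ratios were -0.05, 0.13 and 0.28, and the steps 0.14 and 0.23. The cytosolic ribosomal proteins, level between 0 and 12 h, had median steps of 0.27 and -0.27, steps of like size in genes that were level at the ends, and their part in the other steps was not tested.

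Reads of overlapping entries may have been split, and 1498 members share a locus with another entry. Named genes among them include CCNE2, PCNA, TYMS, MSH6, PKMYT1, CCNA2, BORA, POLD4, KIF20A, TP73 and GPRASP2. The lowest arm difference of all was in such an entry, C18orf32, with changes of -2.87 in siE2F7 and 0.42 in siNT. Its overlapping readthrough entry RPL17-C18ORF32 had 2.21 and -0.35, the opposite directions. Small RNA entries made up 52 members, and 15 carried a spreadsheet date in place of a symbol and are not named. Some genes, such as CENPE and PCNA, stand in more than 1 list, so the lists are not independent.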

How the data were processed

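Per the labels' protocols, U2OS RNA was taken up in TRIzol, purified with RNeasy and sequenced from TruSeq RNA libraries. The values are FPKM per gene as deposited by the authors, in tables with the column layout of Cuffdiff, per the file headers. CASAVA 1.8 and hg19 (GRCh37) are named in the submitters' processing notes. The sources used here do not give the aligner, annotation or filters, nor whether the times were scaled together. A shift between times that both arms share drops out of the arm difference.

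Entries were joined by identifier, and log2 ratios of FPKM + 0.1 were computed in Python 3.11.15 with pandas 2.3.3, after a check on simulated data. Nothing says that the libraries came from separate cultures, and with 1 library per group no test was made. Called means past 2-fold for a change and past 1.5-fold for an arm difference. The members, the 41 gene lists and the naming rule were chosen with earlier results of these data known. The rule named E2F7, E2F8, E2F1 and E2F2, all G1/S and mitotic entry genes, the extremes of each list, of all members and of each programme class, and the text shortens it. NTN1 lies outside the rule and was chosen after its values were seen. Alternatives were other pseudocounts, minimums, scalings and folds, and subsets without small RNA or locus-sharing entries. Some results that the rule names are not reported here.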

Additional observations from a re-analysis of the deposited data

Results flagged for a closer look

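In 6 genes the arms moved past 1.5-fold in opposite directions between 0 and 12 h, 3 of them small RNA entries. The others were NME1-NME2, with an arm difference of -1.98, RPS10-NUDT3, with -1.78, and TMEM183A, with 1.38. The first is a readthrough of the nucleoside diphosphate kinase genes and stood at 10.6, 10.3 and 19.7 FPKM in siNT and 13.8, 17.5 and 6.44 FPKM in siE2F7 at 0, 3 and 12 h. RPS10-NUDT3, also a readthrough, stood at 2.14, 3.87 and 4.12 FPKM in siNT and 6.73, 5.27 and 3.65 FPKM in siE2F7. Both share a locus with another entry. TMEM183A, a membrane protein gene, stood at 7.43, 3.29 and 4.53 FPKM in siNT and 4.44, 3.13 and 7.17 FPKM in siE2F7. None of these differences was tested, as each value is 1 library.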

How the results depend on the processing

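No paired analysis was possible because each arm and time had 1 library. With the alternatives run, no value past its fold changed sign, but the balance of paired counts turned in the cases given below: flattened against exaggerated genes by the arm that chose them, and genes higher against lower in siE2F7 with a lower minimum. Of 8598 values of named genes, 8502 stayed within 0.1 of their main value, and 96 moved by more. The minimums and subsets only choose genes and could not move a gene's value, so the pooled count says little of stability. Of 912 values, 80 moved with a pseudocount of 1 FPKM, 14 with quantile normalization and 2 with a pseudocount of 0.01 FPKM. Class counts below are in the order kept, flattened, exaggerated unless one is named. With a pseudocount of 1 FPKM, genes at least 2-fold lower in siE2F7 numbered 75, flattened downward genes 4 and exaggerated downward genes 2. With a minimum mean of 1 FPKM, 217 genes were at least 2-fold higher and 300 lower in siE2F7, the arm difference was past 1.5-fold for 523 upward and 463 downward, upward genes had 18 flattened and 31 exaggerated, and downward genes 159, 30 and 24. With no minimum the counts were 219, 306, 526 and 475, then 18 and 32, then 159, 30 and 25. With a minimum of 20 FPKM they were 69, 11, 49 and 18, then 1 and 6, then 13, 2 and 0. Flattened upward genes numbered 3 without small RNA entries. Without locus-sharing entries exaggerated downward genes numbered 3, and the median siNT change of the G1/S regulators was -0.75. Without E2F7 itself, an alternative chosen after seeing the data, their siE2F7 median was -0.21 and the arm difference 0.53. Chosen by the siNT change alone, upward genes had 16 flattened and 9 exaggerated, and downward genes 44 and 1. Chosen by the siE2F7 change alone, these were 1 and 33, and 7 and 25. With a mean of arms past 1.5-fold, the upward classes held 316, 13 and 31 genes and the downward classes 474, 41 and 24. Past 3-fold they held 15, 1 and 6, and 5, 5 and 0. With an arm difference past 2-fold, flattened and exaggerated genes were 2 and 4 upward, and 6 and 2 downward. With the narrowest arm-difference fold tried, 38 upward genes were kept and 49 exaggerated, and 29 downward genes were flattened and 15 exaggerated. Depth is unknown, so counting error for low genes could not be given.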
